A study of Homo sapiens with 10 samples.

Results

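The genes described here are 7 regulators and surface markers of plasma cells: the transcription factor genes IRF4, XBP1 and PRDM1, the receptor genes TNFRSF17 and CD27, and the surface protein genes CD38 and SDC1. They were chosen by name, with earlier results of these data known. Every probe set of the array whose platform annotation gives a single gene, and that gene one of the 7, was taken. This gave 10 probe sets of 12558 that are not controls: 3 for IRF4, 2 for XBP1 and 1 for each other gene. The cells were ST486, an established line from a human Burkitt's lymphoma, a tumour of germinal centre B cells, not plasma cells. One group of 5 Affymetrix HG-U95Av2 arrays came from cells given a lentivirus with an shRNA against the kinase gene STK38, and the other group of 5 from cells given a lentivirus with a non-target shRNA. All were taken 60 h after transduction, and both groups therefore carry a vector and a hairpin. The STK38 shRNA was a single hairpin in a single line, and nothing in the labels says that replicates were separate cultures, so p-values reflect array-to-array spread that may be technical.

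A B cell becomes a plasma cell when IRF4 rises and induces PRDM1, which encodes the repressor Blimp-1. Blimp-1 shuts down genes of the B cell and of proliferation, and XBP1, spliced in the unfolded protein response, enlarges the endoplasmic reticulum (ER) for antibody secretion. BCMA, the product of TNFRSF17, binds the survival ligands APRIL and BAFF. CD38 is an ectoenzyme of germinal centre and plasma cells, syndecan-1 (SDC1, CD138) is the heparan sulphate proteoglycan by which plasma cells are sorted, and CD27 is the receptor for CD70 and a memory B cell marker.

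Reference promoters from RefSeq (GRCh38.p14), from 250 bases before to 50 after a start site, were at hand for 6 of the 7 genes, in 9 entries; TNFRSF17 was not among them. IRF4, XBP1 and CD38 are shown since these 3 genes fell together at signals well above background. Capitals mark the letters CCACG, on either strand, which form the core of sites bound by XBP1 and ATF6, and the CCAAT of an ER stress response element (CCAAT, 9 bases of any kind, CCACG). The IRF4 window lies at chr6:391502-391801 on the plus strand, that of XBP1 at chr22:28800520-28800819 on the minus strand, and that of CD38 at chr4:15778078-15778377 on the plus strand.
IRF4: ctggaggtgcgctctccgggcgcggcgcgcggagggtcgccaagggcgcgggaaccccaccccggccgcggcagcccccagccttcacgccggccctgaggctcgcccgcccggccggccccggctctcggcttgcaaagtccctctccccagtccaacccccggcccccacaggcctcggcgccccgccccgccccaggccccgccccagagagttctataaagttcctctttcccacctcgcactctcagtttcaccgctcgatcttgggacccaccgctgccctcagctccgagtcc
XBP1: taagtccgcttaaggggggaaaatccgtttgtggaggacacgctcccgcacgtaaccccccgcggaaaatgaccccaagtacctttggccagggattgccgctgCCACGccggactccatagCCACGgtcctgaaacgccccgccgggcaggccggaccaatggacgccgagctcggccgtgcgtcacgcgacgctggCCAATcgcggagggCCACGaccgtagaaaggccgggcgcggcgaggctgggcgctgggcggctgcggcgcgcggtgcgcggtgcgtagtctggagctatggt
CD38: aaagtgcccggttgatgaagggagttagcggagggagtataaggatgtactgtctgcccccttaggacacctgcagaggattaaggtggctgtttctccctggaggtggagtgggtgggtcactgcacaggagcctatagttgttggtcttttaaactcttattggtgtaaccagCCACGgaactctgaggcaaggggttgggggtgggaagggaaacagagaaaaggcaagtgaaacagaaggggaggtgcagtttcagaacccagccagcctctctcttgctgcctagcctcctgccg
The XBP1 window shown held CCACG 3 times, 146, 128 and 38 bases before the start site. The last match closed an ER stress response element. CCACG occurred in 38.1% of 35116 promoters and that element, searched on both strands after the sequences had been seen, in 0.0769%. CD38 held CCACG once and IRF4 did not. Of the 9 entries, 5 held CCACG. Among the 5 were an entry of PRDM1 (2 matches), a gene that was not called, and an entry of SDC1 (1 match). A second XBP1 entry held 2 matches and no ER stress response element. Neither CACGTG, the E-box bound by MYC and MAX (7.26% of promoters), nor GAAA, 2 bases of any kind and GAAA, which resembles the element bound by IRF factors and Blimp-1 (3.57%), occurred in any of the 9 windows. A match is a run of letters, not a bound site, and no match says only that these letters are not in the window.

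STK38 mRNA was lower on every array with its shRNA at all 3 of its probe sets, with log2 differences of -2.19, -1.16 and -0.82, and the 4 MYC probe sets lay 1.38 to 1.64 lower on the log2 scale, none with overlapping groups. STK38 shRNA replicate 4 stood apart, with a mean correlation of 0.982 with its group where the other arrays of both groups had 0.992 to 0.996. Of 6 B cell markers on the array, 5 (MS4A1, CD79A, CD79B, CD22 and BLK) were above the array background on every array, while PAX5 was not above it on any. CD79A, a subunit of the B cell receptor, was called higher (log2 difference 0.49, adjusted p = 0.000689) and the other 4 were not called. Background is the 90th percentile, on each array, of 23 control probe sets and ran from 2.36 to 2.66. Of 4 monocyte, 4 epithelial and 2 fibroblast or endothelial markers tested, 0 were called in limma, and 0 had an unadjusted p under 0.05. The T cell markers LCK, CD247 and TRBC1, all of the 3 tested, were called lower at their brightest probe set, beside 15.8% of all genes. LCK was also called lower at another probe set, 33238_at. TRBC1 was not called at its other tested probe set (log2 difference -0.033, limma adjusted p = 0.868). CD247 was above background on 1 control array and 0 STK38 shRNA arrays. CD2, CD3D, CD3E and CD3G were not above background on any array. The summed log2 level of the 7 T cell markers was 18.7 to 19.6 in the STK38 shRNA arrays and 20.8 to 21.5 in the controls; CD27 and CD38 are also T cell genes, and the part of these markers in their result was not tested.

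All 10 probe sets of the 7 genes had a lower mean with the STK38 shRNA. One, an IRF4 probe set, lay under the filter on low values (mean under 1.93), so 9 were tested in limma among 7535 probe sets. Of these 9, 7 were called lower (adjusted p under 0.05, Benjamini-Hochberg) and 0 higher, with 8 and 0 at an unadjusted p under 0.05. IRF4 and XBP1 each entered with 2 probe sets. Counted at the brightest probe set of each gene, 5 of the 7 genes were called lower, beside 15.8% of 5403 genes. Over all probe sets tested, 29.9% were called, 15.8% lower and 14.1% higher. Without STK38 shRNA replicate 4, 8 of the 9 were called lower, CD27 being added, where 37.4% of all probe sets were called, 16.8% lower and 20.5% higher. With no filter 7 of the 10 were called lower, beside 9.21% of all probe sets. The median log2 difference of the 9 was -0.94, against 0.018 over all 7535. Because the 7 genes were chosen with earlier results of these data known, these contrasts with all probe sets are not an unbiased comparison. At 7 of the 9 the arrays of both groups were fully separate; this held for 22.1% of all tested probe sets, and for 12.8% in this direction. In bulk RNA, fewer cells with a transcript and less of it per cell cannot be told apart.

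**Figure D1:**
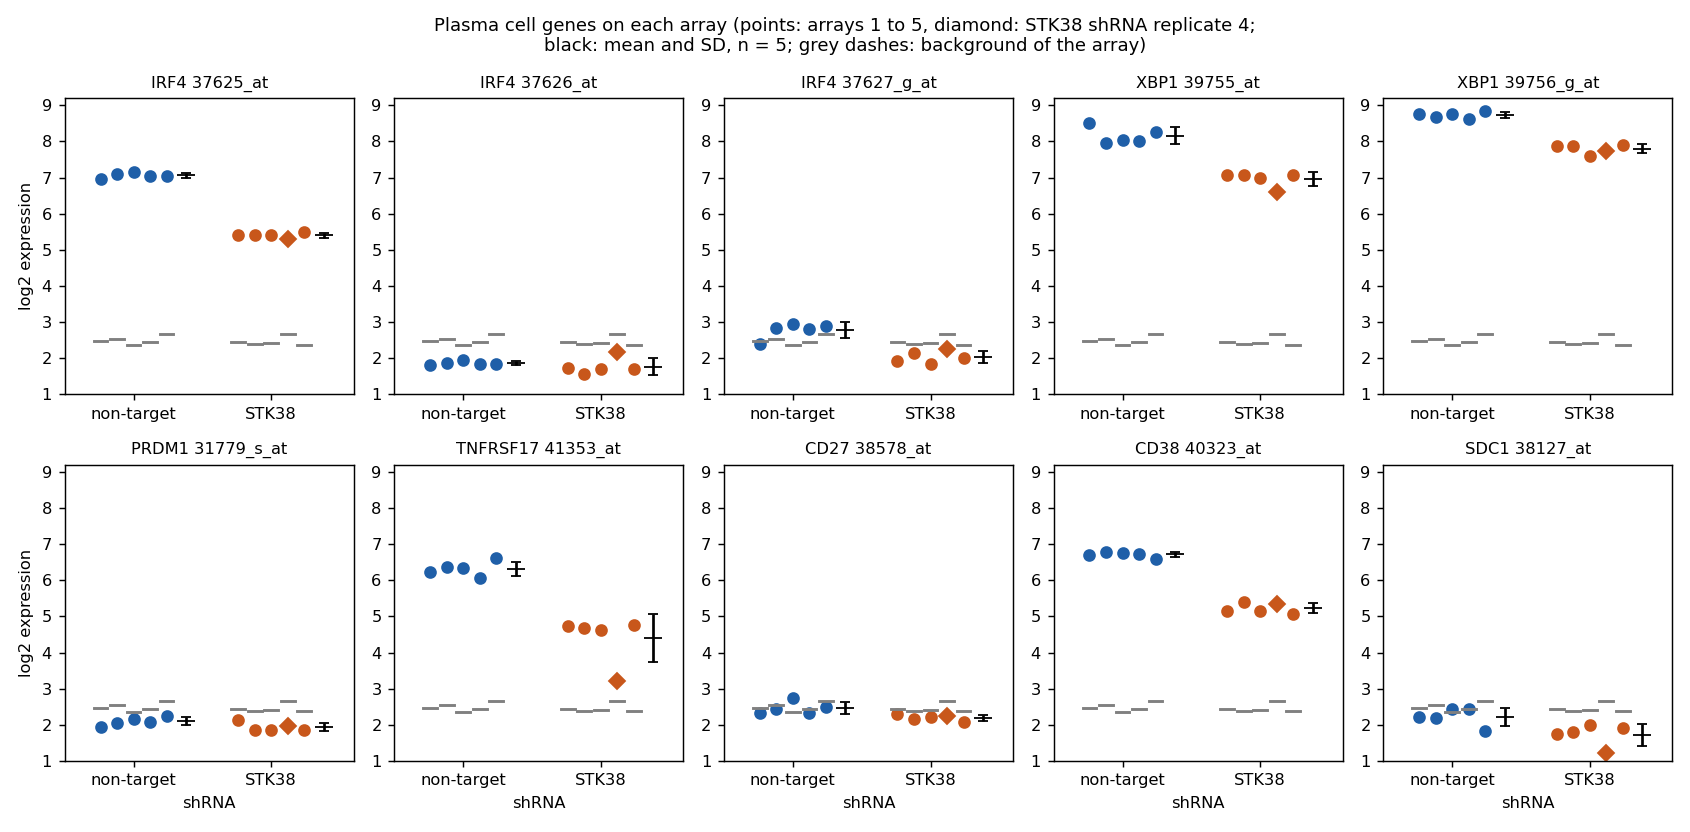
Log2 expression (y axis) of the 10 probe sets on each array of both groups (x axis), with the mean and SD (n = 5) in black and the background of each array as a grey dash. IRF4 37625_at, both XBP1 probe sets, TNFRSF17 and CD38 lie above background on every array with separate groups, while the other 5 probe sets lie near or below it.

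IRF4 fell most among the regulators. At probe set 37625_at the control arrays read 6.97, 7.11, 7.14, 7.04 and 7.05 and the STK38 shRNA arrays 5.40, 5.41, 5.41, 5.29 and 5.49 (log2). The arrays of each group lay within 0.20 of one another, and 1.48 separated the lowest control from the highest STK38 shRNA array. The control mean of 7.06 ± 0.069 became 5.40 ± 0.071 (SD, 5 arrays a group), a 3.17-fold fall (log2 difference -1.66, 95% interval -1.85 to -1.48, limma adjusted p = 6.44e-09). Only 44 of the 7535 probe sets had a more negative difference.

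The other IRF4 probe sets were dim. At 37627_g_at the controls read 2.38, 2.83, 2.95, 2.82 and 2.88 and the STK38 shRNA arrays 1.92, 2.15, 1.85, 2.25 and 2.00. The groups did not overlap, but 4 control arrays and 0 STK38 shRNA arrays exceeded background, so the change is a lower bound of at least 1.25-fold (measured log2 difference -0.74, SE 0.12, adjusted p = 0.000248). At 37626_at, under the filter, the controls read 1.81, 1.87, 1.96, 1.83 and 1.83 and the STK38 shRNA arrays 1.72, 1.55, 1.69, 2.15 and 1.69. No array exceeded background there and the groups overlapped (difference -0.098, two-sided exact permutation p = 0.421).

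XBP1 fell at both probe sets, each far above background. At 39756_g_at the controls read 8.77, 8.67, 8.76, 8.64 and 8.85 and the STK38 shRNA arrays 7.89, 7.87, 7.60, 7.74 and 7.89, a 1.92-fold fall (log2 difference -0.94, 95% interval -1.10 to -0.78, adjusted p = 4.87e-07). At 39755_at the control arrays 1, 2, 3 and 5 read 8.52, 7.96, 8.04 and 8.26, with array 4 between arrays 2 and 3, and the STK38 shRNA arrays 7.07, 7.07, 6.98, 6.61 and 7.06, a 2.29-fold fall (-1.19, 95% interval -1.45 to -0.94, adjusted p = 3.66e-06). Both groups were separate at both probe sets, with replicate 4 the lowest array at 39755_at. The probe sets differed from each other in their change by 0.25 (exact permutation over arrays, p = 0.0397, also after adjustment over 3 such pairs), a call that was lost when any of 7 single arrays was left out, STK38 shRNA replicate 1, 2, 4 or 5 or non-target replicate 1, 4 or 5 (adjusted p of 0.0635 to 0.0794).

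PRDM1 had no detected signal with either shRNA. Its probe set read 1.94, 2.06, 2.16, 2.07 and 2.25 in the controls and 2.12, 1.86, 1.87, 1.96 and 1.85 in the STK38 shRNA arrays, below background on all 10. The groups overlapped, and the difference of -0.17 was not called (95% interval -0.34 to 0.0082, adjusted p = 0.152). Without the human reverse-strand controls the background was 1.89 to 2.18, and 4 control arrays and 1 STK38 shRNA array exceeded it.

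TNFRSF17 had the largest difference of the 7 genes. The controls read 6.24, 6.36, 6.33, 6.08 and 6.61 and the STK38 shRNA arrays 4.75, 4.67, 4.63, 3.21 and 4.76. Of the latter, 4 lay within 0.13 of one another and replicate 4 far below them, and all 5 lay at least 1.32 under the lowest control. Means were 6.33 ± 0.20 and 4.40 ± 0.67 (SD over 5 arrays), a 3.79-fold fall (log2 difference -1.92, 95% interval -2.45 to -1.39, adjusted p = 3.57e-05). Without replicate 4 the difference was -1.62 (adjusted p = 8.27e-09), so that its place before IRF4, at -1.63 without that array, rests on replicate 4. The intervals of TNFRSF17, IRF4 37625_at and CD38 overlapped.

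CD27 was near background. It read 2.33, 2.42, 2.73, 2.31 and 2.49 in the controls and 2.29, 2.16, 2.22, 2.24 and 2.08 in the STK38 shRNA arrays. The groups were separate by 0.022, with 1 control array and 0 STK38 shRNA arrays above background. The log2 difference of -0.26 (95% interval -0.46 to -0.056) missed the threshold, adjusted p = 0.0526. It passed without STK38 shRNA replicate 4 (adjusted p = 0.0305), without non-target replicate 1 (0.0483) or 4 (0.0473), and with arrays weighted (0.0171), centred on their medians (0.0442) or quantile normalized (0.0362).

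CD38 fell on every array. The controls read 6.71, 6.79, 6.77, 6.73 and 6.60 and the STK38 shRNA arrays 5.16, 5.40, 5.16, 5.35 and 5.06. A distance of 1.19 lay between the groups, and replicate 4 was within its group. Means were 6.72 ± 0.076 and 5.23 ± 0.14 (SD over 5 arrays), a 2.81-fold fall (log2 difference -1.49, 95% interval -1.70 to -1.28, adjusted p = 6.43e-08).

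SDC1 was at the floor. It read 2.20, 2.19, 2.43, 2.43 and 1.83 in the controls and 1.74, 1.79, 1.99, 1.21 and 1.90 in the STK38 shRNA arrays. The groups overlapped, and 1 control array and 0 STK38 shRNA arrays exceeded background, so no fold is given for the call (log2 difference -0.49, SE 0.14, adjusted p = 0.0158; -0.36 without replicate 4). With the lower background 4 control arrays and 0 STK38 shRNA arrays exceeded it, which gives at least 1.13-fold. SDC1 is also an epithelial gene. Of 7 epithelial markers on the array CDH1, EPCAM, KRT5 and KRT14 were not above background on any array, KRT8 was above it on all 10, and KRT18 and KRT19 on 1, STK38 shRNA replicate 4. The summed log2 level of the 7 was 17.1 on that array, 14.3 to 15.2 on the other STK38 shRNA arrays and 14.1 to 15.4 in the controls. The sums of the monocyte markers (16.7, the others of its group at most 14.4) and of the fibroblast and endothelial markers (12.4, the others at most 11.4) were also highest on replicate 4, where SDC1 was lowest. Only 3 of 7 monocyte and 1 of 6 fibroblast and endothelial markers were above background on any array. The background of replicate 4 was 2.65, where the other STK38 shRNA arrays had 2.37 to 2.44 and the controls 2.36 to 2.66. Its median, 2.25, was the highest of all arrays. Its 75th percentile, 3.535, was the lowest, where the other arrays of both groups had 3.91 to 4.01. The part of these markers, of the array's floor and of its low 75th percentile in the results was not tested.

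**Figure D2:**
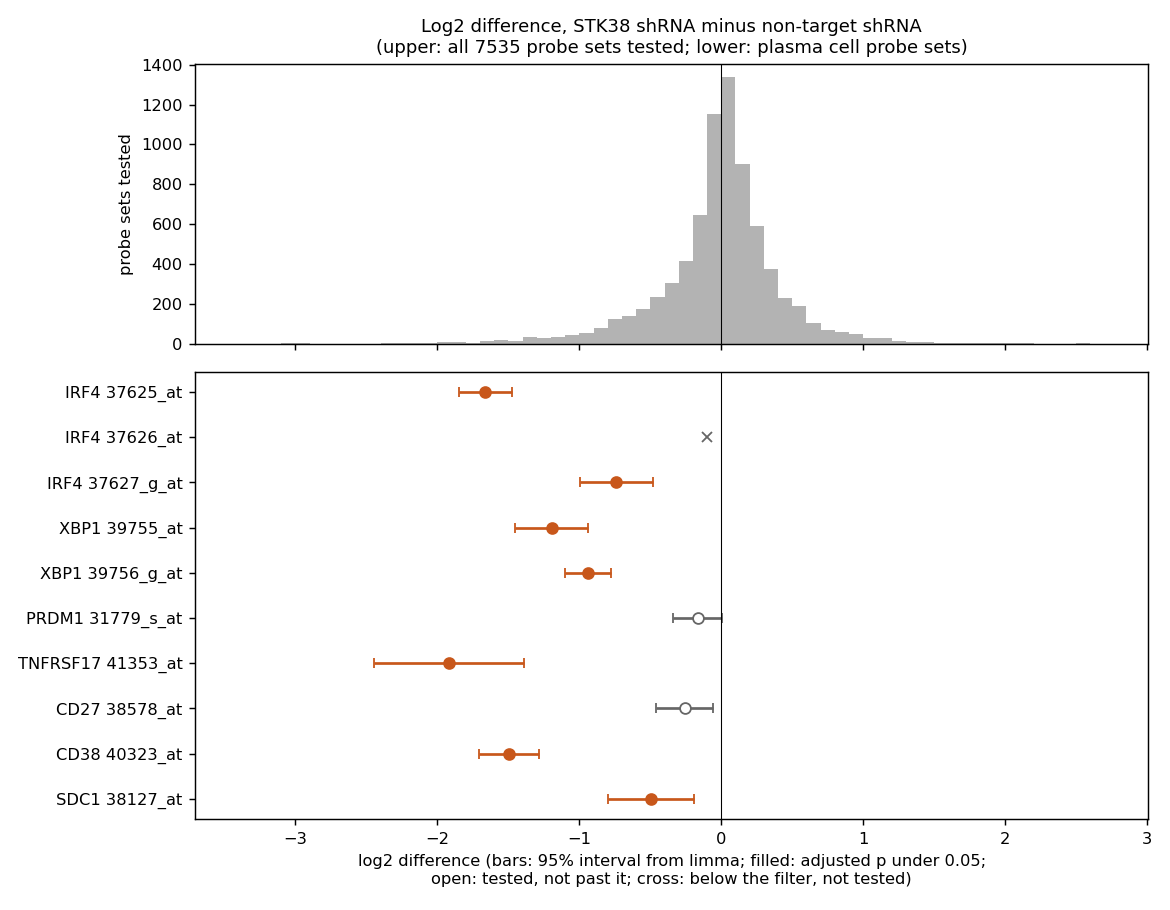
Upper panel: number of probe sets tested (y axis) by log2 difference, STK38 shRNA minus non-target shRNA (x axis). Lower panel: the same difference for the plasma cell probe sets with 95% intervals from limma, filled where the adjusted p is under 0.05; TNFRSF17 lies at -1.92, IRF4 37625_at at -1.66 and CD38 at -1.49, in the left tail of all probe sets.

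Other regulators and plasma cell genes moved both ways. Of 20 genes in this list 12 were tested, each at its brightest probe set; 4 were called lower and 3 higher, with a median of -0.041, where 31.0% of 5403 genes were called, 15.8% lower and 15.2% higher, whose median was 0.019. BCL6, the germinal centre repressor that opposes PRDM1, fell from 3.01 ± 0.15 to 2.41 ± 0.20 (SD, n = 5 each; adjusted p = 0.00128), with 3 STK38 shRNA arrays above background. The BCL6 probe sets 978_at and 979_g_at lay under the filter and were not above background on any array (log2 differences 0.074 and -0.018). POU2AF1, the B cell coactivator OBF-1, fell from 8.71 ± 0.18 to 8.23 ± 0.21 (adjusted p = 0.00357). SPI1, which encodes PU.1, fell by 0.47 on the log2 scale (adjusted p = 0.0179), and BATF rose by 0.43 (adjusted p = 0.0103) with 1 control array above background; both products bind DNA with IRF4. SPIB, which encodes a relative of PU.1, was not called (log2 difference 0.31, adjusted p = 0.168). Without STK38 shRNA replicate 5 or non-target replicate 3 the count of lower calls was 2, and SPI1 was lost in both. JCHAIN, which joins IgM and IgA polymers, read 10.35 ± 0.19 and 10.18 ± 0.091 and was not called (adjusted p = 0.122).

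Among 7 other interferon regulatory factor genes, IRF9 alone was called, from 2.69 ± 0.12 to 3.56 ± 0.32 (SD, n = 5 each; adjusted p = 0.000360), and 0 were lower in limma, also 0 at an unadjusted p under 0.05. IRF8 was not above background on any array. The list's median was 0.17, and its single higher call stands beside 15.2% of all genes. Without STK38 shRNA replicate 3 or 4 or non-target replicate 3 the count of higher calls was 2.

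Of 26 tested ER and secretory genes known as XBP1 or ATF6 targets, 5 were called lower and 0 higher (9 and 0 at an unadjusted p under 0.05), with a median of -0.16. Over all genes 15.8% were called lower, a share near that of this list, and 15.2% higher, where this list had 0. No share over all genes was taken for the unadjusted p. HSPA5, the chaperone BiP, read 8.85, 8.65, 8.76, 8.80 and 8.99 in the controls and 8.27, 8.32, 8.14, 8.29 and 8.13 with the STK38 shRNA. Its groups were separate, with a log2 difference of -0.58 (95% interval -0.74 to -0.42, adjusted p = 3.29e-05). The chaperone gene HYOU1 fell by 0.83, EDEM1, which sorts misfolded glycoproteins for degradation, by 0.69 and RPN1, a subunit of oligosaccharyltransferase, by 0.42 on the log2 scale (adjusted p = 0.00189, 0.00362 and 0.0123). The fifth was PDIA6, named after its value was seen, at -0.28. P4HB, also named after its values were seen, was not called at its brightest probe set (log2 difference -0.18, adjusted p = 0.108). It was called lower at 691_g_at (-0.28, adjusted p = 0.0165), and its probe set 710_at lay under the filter. With the probe set of largest interquartile range taken for each gene, 6 genes of this list were called lower and 0 higher. The translocon gene SEC61B had a difference of -0.024 and DNAJB9, a target of spliced XBP1, one of 0.16, neither called (adjusted p = 0.894 and 0.432); these 2 were also chosen after their values were seen. The arrays do not separate spliced from unspliced XBP1.

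CD70, the ligand of CD27, rose while CD27 itself was not called. CD70 read 8.01, 8.03, 7.97, 7.86 and 7.91 in the controls and 8.87, 8.97, 8.87, 8.98 and 8.70 in the STK38 shRNA arrays. Each of the latter lay above every control, a 1.89-fold rise (log2 difference 0.92, SE 0.071, adjusted p = 2.90e-07). In the list of 10 tested receptors, ligands and adaptors of BCMA and CD27, CD70 and RELA, an NF-kappaB subunit, were called higher and 0 lower in limma (1 at an unadjusted p under 0.05), beside 15.2% higher and 15.8% lower of all genes, with a median of -0.035. RELA rose by 0.29 on the log2 scale (adjusted p = 0.0232) at its brightest probe set, was not called at its 3 others, and was lost without STK38 shRNA replicate 1. TNFRSF13B, the BCMA relative TACI, read 4.81 ± 0.073 and 4.57 ± 0.59 and was not called (adjusted p = 0.494).

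The list of surface partners of CD38 and syndecans also holds EXT1 and EXT2, which make heparan sulphate chains and are not surface proteins. Of its 7 tested genes, 3 were called lower and 0 higher in limma (3 and 1 at an unadjusted p under 0.05). This stands beside 15.8% and 15.2% called of all genes, and the list's median was -0.021. ITGA4, the integrin alpha 4 chain that holds plasma cells in the marrow, fell 2.27-fold (log2 difference -1.18, SE 0.13, adjusted p = 1.06e-05) and at least 1.57-fold at its other probe set, which was above background on all control arrays and 0 STK38 shRNA arrays. CXCR4, the receptor for the marrow chemokine CXCL12, fell 1.84-fold, from 8.63 ± 0.19 to 7.76 ± 0.19 (SD, n = 5 each; adjusted p = 2.03e-05). CD81, a tetraspanin of the cell surface, fell by 0.31 (adjusted p = 0.00628). Without STK38 shRNA replicate 4, 1 gene of this list was called higher.

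**Figure D3:**
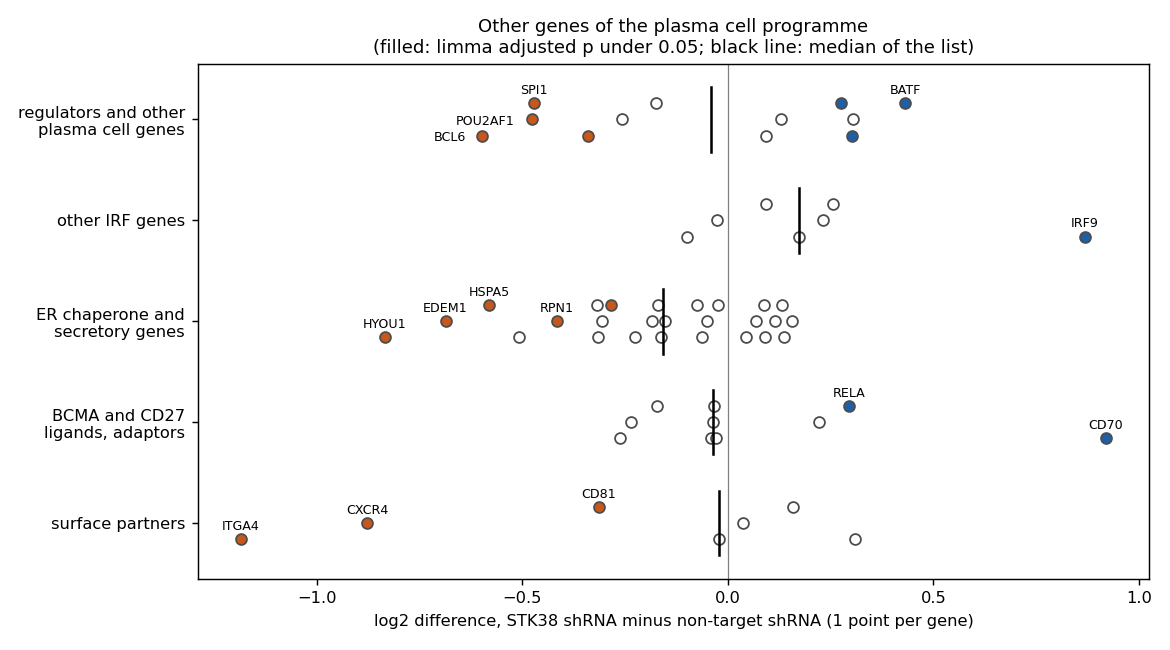
Log2 difference, STK38 shRNA minus non-target shRNA (x axis), of each tested gene in 5 lists (rows), filled where the limma adjusted p is under 0.05, with the list's median as a black line. ITGA4 (-1.18), CXCR4 (-0.88) and HYOU1 (-0.83) lie furthest left and CD70 (0.92) and IRF9 (0.87) furthest right.

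The genes most like each member were found by the root mean square difference of log2 values over the 10 arrays, after centring on the control mean, among tested probe sets with 1 gene. Nearest to CD38 were MYB (0.092), VDAC1 (0.11) and VIM (0.13); to IRF4, TMEM131L (0.11), SRRM1 (0.14) and SNX3 (0.15); to XBP1, AMD1 (0.11), CAPZA1 (0.12) and MCFD2 (0.12); and to TNFRSF17, CSE1L (0.14), LRRFIP1 (0.16) and RBPJ (0.23). MYB, a transcription factor of haematopoietic progenitors, fell by 1.49 at this probe set, as CD38 did. CSE1L, LRRFIP1 and RBPJ shared with TNFRSF17 the low value of STK38 shRNA replicate 4. The measure picks genes whose values are near on each array, so both likenesses follow from the choice and are not separate results. Without that array 1 of the 3 names remained for IRF4, XBP1 and TNFRSF17 and 2 for CD38. Over all arrays left out singly and both rescalings, 0 to 3 names remained for XBP1, 1 to 3 for IRF4 and TNFRSF17 and 2 to 3 for CD38.

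**Figure D4:**
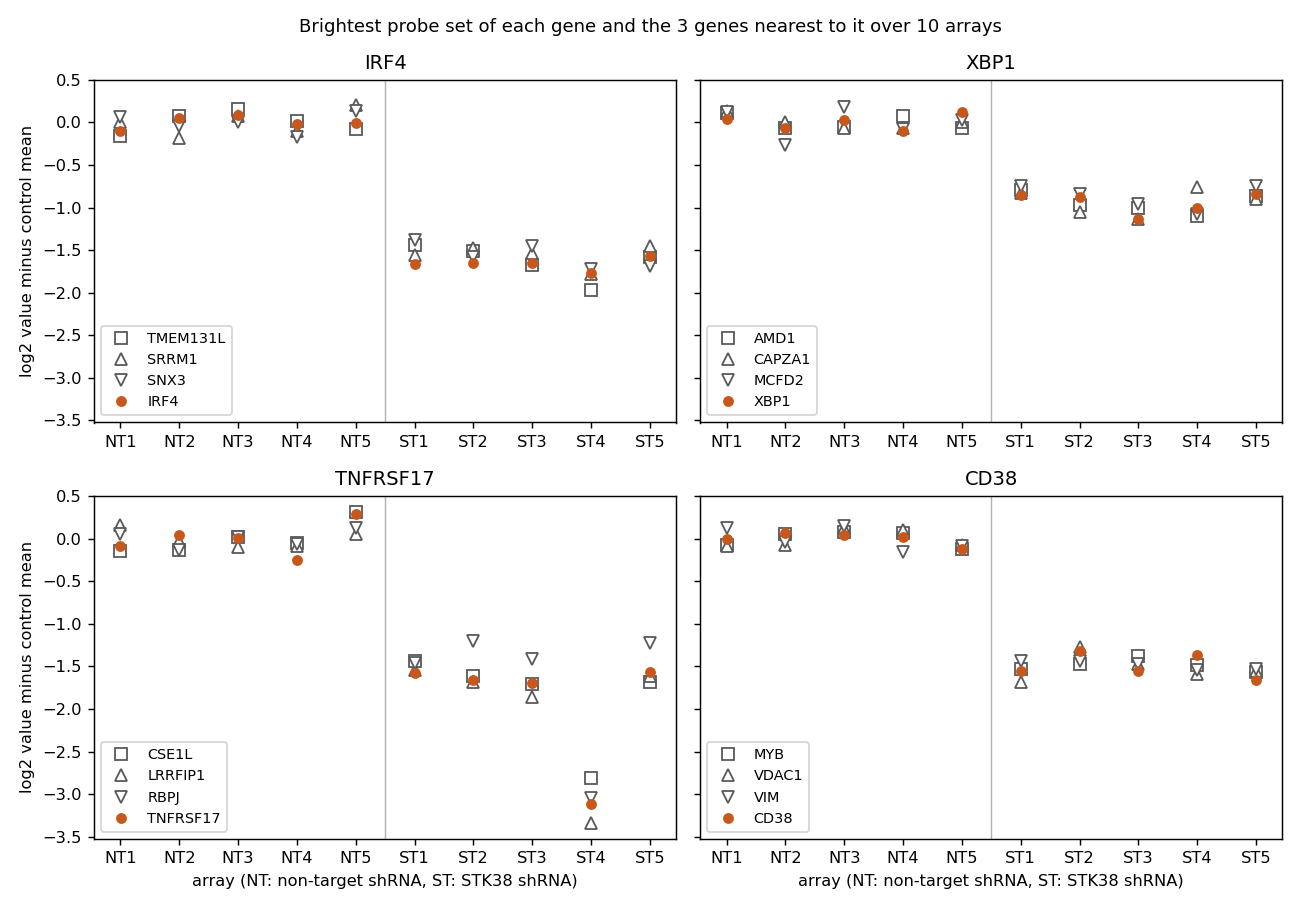
Log2 value minus the control mean (y axis) on the 10 arrays (x axis; NT non-target shRNA, ST STK38 shRNA) for the brightest probe set of IRF4, XBP1, TNFRSF17 and CD38 (filled) and the 3 nearest genes (open). The TNFRSF17 panel shows all 4 genes lowest on STK38 shRNA replicate 4.

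Leaving out single arrays moved no plasma cell gene across 0. The log2 difference ran from -1.69 to -1.63 for IRF4 37625_at, from -0.97 to -0.89 for XBP1 39756_g_at, from -1.54 to -1.45 for CD38 and from -2.01 to -1.62 for TNFRSF17. For SDC1 it ran from -0.59 to -0.36 and stayed called (highest adjusted p = 0.0456), and for PRDM1 from -0.21 to -0.13 without a call.

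**Figure D5:**
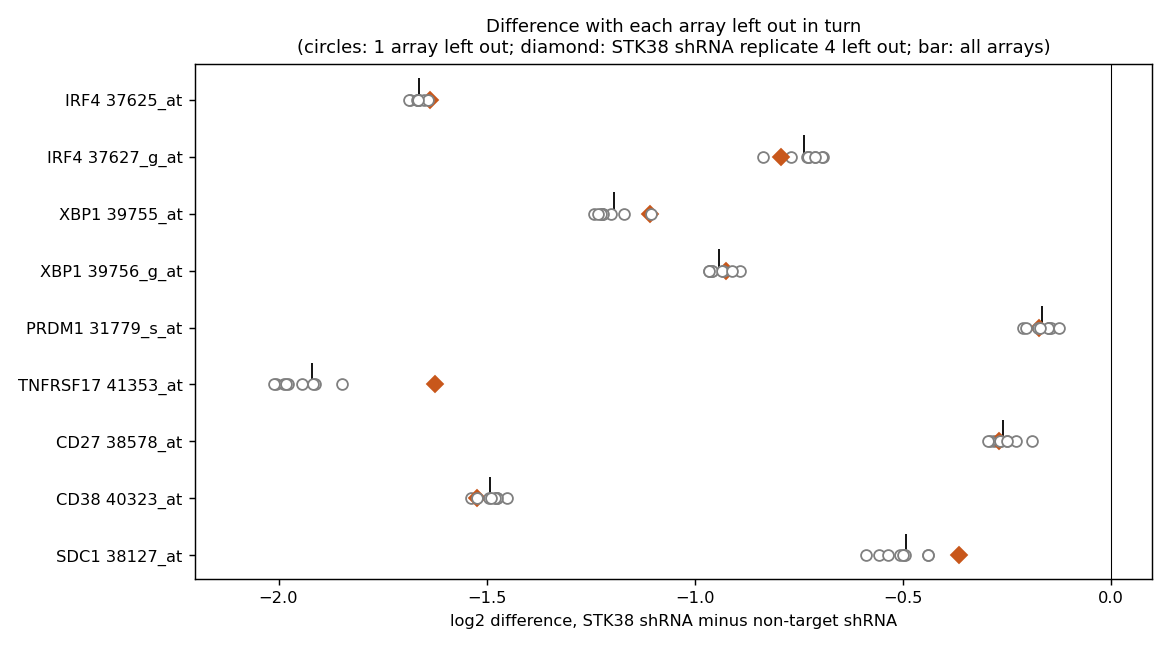
Log2 difference, STK38 shRNA minus non-target shRNA (x axis), of the 9 tested plasma cell probe sets (rows) with all arrays (bar) and with each array left out (circles; diamond, STK38 shRNA replicate 4 left out). TNFRSF17 moves from -1.92 to -1.62 and SDC1 from -0.49 to -0.36 without replicate 4.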

How the data were processed

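Biotin-labelled total RNA of 10 samples was hybridised to 1-colour arrays. The deposited values of 12625 probe sets are on the log2 scale, read from their range (0.35 to 12.65), and were normalized by the authors; the submitters' processing notes name GCRMA and affy, with no version. GCRMA pulls dim probe sets to a common floor, which shrinks their differences. No scanner file was analysed here.

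Symbols came from the platform annotation, updated by Entrez identifier to RefSeq (GRCh38.p14); 10943 probe sets had 1 gene, 545 several and 1070 none. The 67 control probe sets and those with a mean under the 40th percentile (1.93) were left out. Groups from the labels were compared in R 4.3.3 with limma 3.58.1 (eBayes with trend, 8 residual degrees of freedom, no covariate, Benjamini-Hochberg over 7535 probe sets, threshold 0.05); adjusted p-values are from that fit unless an exact permutation test (scipy 1.17.1, two-sided, smallest possible p 0.00794) is named. The code was tested on simulated data. Where no array of 1 group exceeded background, the fold is a bound against the higher of background and signal. Background used mouse, yeast and reverse-strand controls.

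The members and lists were chosen with earlier results of these data known. Named were all members, up to 4 called genes per list (2 per marker list), larger changes first, and the 3 most similar genes of 4 members; JCHAIN, IRF8, SPIB, TNFRSF13B, TRBC1, KRT8, KRT18 and KRT19 were named after their values were seen. Same-numbered arrays were checked for pairing: deviations from group means correlated at -0.21 to 0.19, with 1 of 5 pairs over 0.1, so numbers were not used.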

Additional observations from a re-analysis of the deposited data

Results flagged for a closer look

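In groups of 5 arrays, a highest or lowest array was listed when its gap to the nearest array exceeded 0.71 of the group's range, which chance gives in about 1 of 20 groups. Of 58 groups, 6 met this, 4 of them on STK38 shRNA replicate 4. On that array TNFRSF17 read 3.21, where the others of its group read 4.63 to 4.76. XBP1 39755_at read 6.61 there, against 6.98 to 7.07, and the brightest STK38 probe set 2.46, against 2.88 to 2.95. IRF4 37626_at was highest there, 2.15 against 1.55 to 1.72, below background. Among the controls, IRF4 37627_g_at was lowest on replicate 1, 2.38 against 2.82 to 2.95, and CXCR4 highest on replicate 5, 8.97 against 8.51 to 8.61.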

How the results depend on the processing

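IRF4 37625_at, IRF4 37627_g_at, both XBP1 probe sets, TNFRSF17 and CD38 stayed called lower under every alternative in which they were tested. The filter of above background on at least 5 arrays left 5 of the 10 probe sets, all called; 5 were above background on every array, 6 without the human reverse-strand controls and 4 against the highest control. At a threshold of 0.01 SDC1 was not called and 1494 probe sets were. With the replicate block 2159 probe sets and the same 7 plasma cell probe sets were called, and the block changed the call of no member and of no list gene named by rule. With single arrays left out, 1947 to 2817 probe sets, 7 to 8 plasma cell probe sets and 15 to 21 list genes (18 with all arrays) were called. The same runs gave 2 to 5 lower calls among other regulators, 1 to 2 higher IRF genes, 1 to 3 higher and 0 to 1 lower BCMA and CD27 partners, 0 to 1 higher surface partners, and 0.17 to 0.31 for the difference between XBP1 probe sets. Array weights raised the list genes called to 28, with 9 lower and 1 higher among ER genes, 2 higher IRF genes, 1 lower BCMA or CD27 partner and 1 higher surface partner; the weight of STK38 shRNA replicate 4 was 0.16. Higher BCMA and CD27 partners numbered 1 with no filter and 1 with the probe set of largest interquartile range. Where a count moved, the cause was not tested. Signals near background limit PRDM1, CD27, SDC1 and the dim IRF4 probe sets, for which a difference may be undetectable on these arrays.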
